A study of Mus musculus with 8 samples.

Results

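The renin-angiotensin system was followed in mouse kidney through 7 genes: Ren1, Agt, Ace, Agtr1a, Agtr2, Atp6ap2 and Mas1. They were chosen by symbol (GENCODE M21) for their place in the pathway, with earlier results of these data known. All 7 were found among the 49315 genes of the deposited count tables and passed the filter on low counts that left 18485 genes. Polyadenylated RNA of frozen kidney was sequenced in 4 samples labelled as controls, which the extraction protocol calls wild type, and 4 samples labelled as conditional knockouts of Kdm1a, which encodes the histone demethylase LSD1. The recombinase and the cells it acts in, the strain, the age and the sex of the animals are not given in the sources used here. Whether the controls carry an unrecombined conditional allele is not given there either.

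In the kidney, renin (Ren1) is secreted by juxtaglomerular cells of the afferent arteriole and cleaves angiotensinogen (Agt) to angiotensin I. Angiotensin converting enzyme (Ace), found on the proximal tubule brush border and on endothelium, turns this into angiotensin II, which constricts vessels and retains sodium through the type 1 receptor (in the mouse encoded by Agtr1a and Agtr1b). The type 2 receptor (Agtr2), abundant in fetal tissues, and Mas (Mas1), the receptor of a shorter angiotensin peptide, oppose many of these actions, and Atp6ap2, the (pro)renin receptor, is also an accessory subunit of the vacuolar proton pump.

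The start regions of 5 of the genes are printed because 3 of them, Ren1, Agt and Ace, had the lowest knockout levels relative to controls. Agtr2 and Atp6ap2 are abundant members without such a difference. They are not matched to Agt in level: control means were 90.2 and 93.7 CPM against 9.37 CPM for Agt. RefSeq (GRCm38.p6) start regions were found for 6 of the 7 members, Agtr1a being the one without an entry. Shown are the 150 bases upstream of the RefSeq start, 5′ to 3′ on the gene's strand. Capitals mark 4 motifs found as plain letters on either strand: the TATA box letters TATAA, the CCAAT box by its own letters, the GC box letters GGGCGG, and the core of the cyclic AMP response element, TGACG. Neighbouring or overlapping motifs run together in capitals.
Ren1, chr1:133350524-133350673, plus strand: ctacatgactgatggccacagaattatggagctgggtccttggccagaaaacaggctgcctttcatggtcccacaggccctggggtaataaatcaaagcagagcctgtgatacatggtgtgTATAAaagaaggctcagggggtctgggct
Agt, chr8:124569707-124569856, minus strand: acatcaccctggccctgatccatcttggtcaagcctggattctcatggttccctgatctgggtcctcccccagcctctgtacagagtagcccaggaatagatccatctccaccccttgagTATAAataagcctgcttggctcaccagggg
Ace, chr11:105967798-105967947, plus strand: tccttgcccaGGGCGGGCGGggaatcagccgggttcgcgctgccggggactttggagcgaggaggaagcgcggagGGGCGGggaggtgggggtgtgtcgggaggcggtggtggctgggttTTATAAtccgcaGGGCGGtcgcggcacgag
Agtr2, chrX:21484474-21484623, plus strand: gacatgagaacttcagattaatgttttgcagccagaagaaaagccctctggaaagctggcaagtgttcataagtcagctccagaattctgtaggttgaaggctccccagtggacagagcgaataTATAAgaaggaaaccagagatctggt
Atp6ap2, chrX:12587609-12587758, plus strand: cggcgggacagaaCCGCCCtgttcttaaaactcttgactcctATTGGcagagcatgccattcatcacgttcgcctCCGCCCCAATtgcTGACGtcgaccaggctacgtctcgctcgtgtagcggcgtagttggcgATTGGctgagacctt
TATAA stood 29 bases upstream of the start in Ren1, 30 in Agt and 26 in Agtr2, and 29 in Ace, where it overlaps the same letters on the other strand at 30. It was not among the 150 bases of Atp6ap2, which held 3 copies of the CCAAT box, 2 of the GC box and 1 response element core, nor in those of Mas1, which held 1 CCAAT box. Ace held 4 copies of the GC box and was the richest in G and C, at 71.3% against 51.3% in Ren1, 54.7% in Agt and a median of 54.0% over all start regions. Among 32851 start regions of this length, 14.2% held the TATA box letters, 24.5% the CCAAT box, 28.6% the GC box and 13.3% the response element core. RefSeq lists another start within Ace (its 150 upstream bases are chr11:105975039-105975188), which lies downstream of the first. The deposited counts sum all exons of a gene, so transcripts from these 2 starts are counted together.

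Libraries held between 19524945 and 28544511 counts. Levels are given as counts per 1000000 counts of the library after scaling (CPM), so that 1 count stood for 0.0346 to 0.0502 CPM. Kdm1a itself was at 110, 112, 120 and 110 CPM in control replicates 1 to 4 and at 94.0, 95.3, 90.9 and 94.2 CPM in the knockouts, a log2 fold change of −0.27 (SE 0.05, edgeR adjusted p 0.0194). Libraries of the same genotype differed from each other. Y-linked transcripts (Ddx3y, Kdm5d, Eif2s3y and Uty) summed to at least 229 CPM in control replicates 1, 3 and 4 and knockout replicates 2 and 3, and to at most 2.63 CPM in control replicate 2 and knockout replicates 1 and 4. The 13 adrenal markers reached a sum of 2825 CPM in knockout replicate 1, of 432 CPM in the fourth knockout and of 162 CPM in the fourth control, against 22.8 to 29.7 CPM in the other 5. Oocyte markers reached 22.1 CPM in control replicate 2 and at most 2.81 CPM elsewhere. Proximal tubule markers, present in all 8 libraries as in kidney, summed to 1425, 537, 1235 and 1993 CPM in control replicates 1 to 4 and to 177, 75.8, 371 and 196 CPM in the knockouts.

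Of the 7 genes, Ace and Agt fell in the knockouts, to 18.3% and 24.9% of the control mean. Ren1 averaged 24.3% of the control mean but varied too much between libraries to pass the test. The receptors Agtr1a, Agtr2 and Mas1 and the proton pump partner Atp6ap2 did not pass it either. The test was edgeR's quasi-likelihood test with Benjamini-Hochberg adjustment over all genes tested, and a gene is termed called at an adjusted p under 0.05. By this rule 14.9% of the 18485 genes tested were called, 8.27% lower and 6.61% higher in the knockout. The 7 genes had 2 calls, both lower, and a median log2 fold change of −0.38 against 0.0044 over all genes tested. In none of the 7 did the knockout libraries lie wholly to one side of the controls, as they did in 18.9% of all genes tested (9.58% with the knockouts lower and 9.29% with them higher). The labels do not say that libraries of a group come from separate animals, so p values measure the spread between these samples, which may in part be technical.

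**Figure D1:**
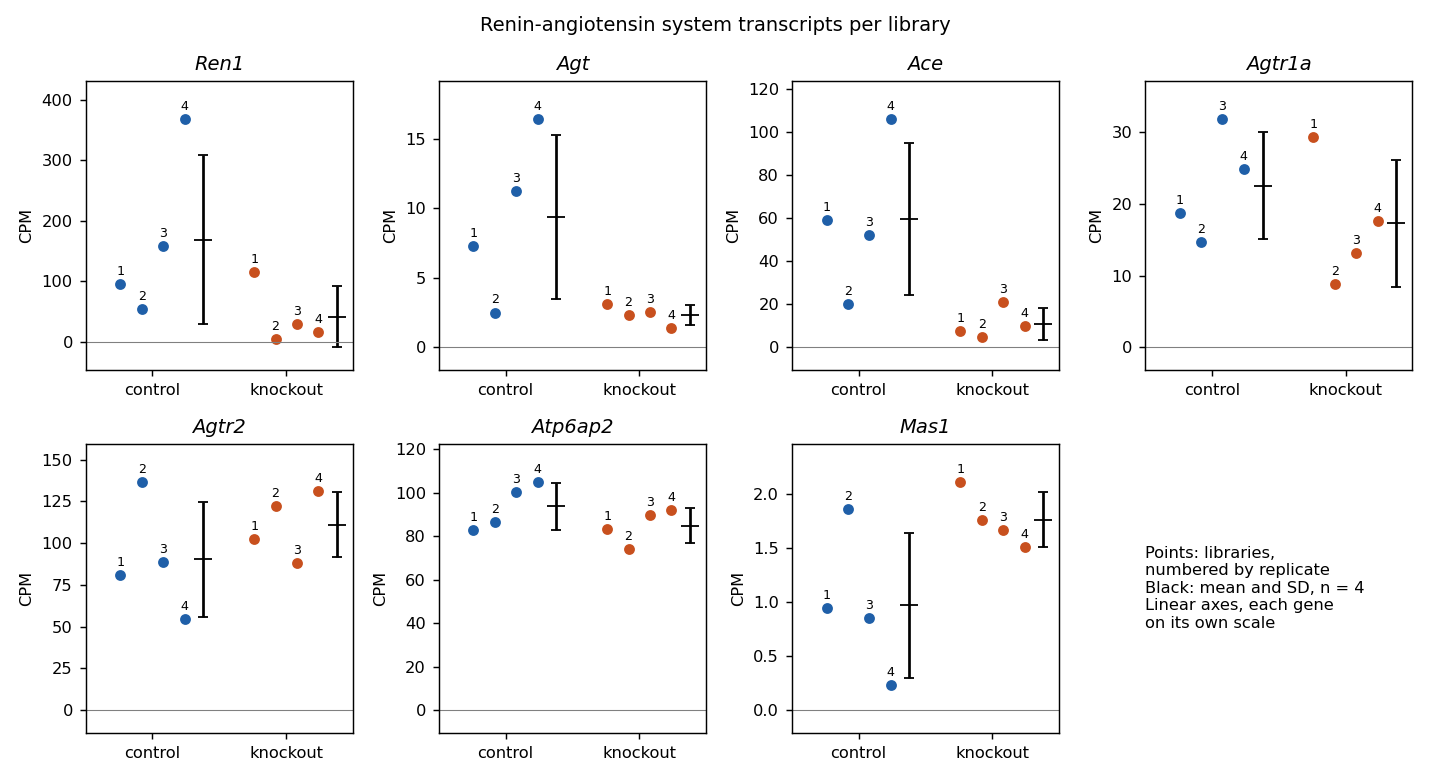
Level of each of the 7 genes in counts per 1000000 (CPM, linear axis) in the 4 control (blue) and 4 knockout (orange) libraries, numbered by replicate, with the mean and SD in black. Ace and Agt are lower in every knockout than in control replicates 1, 3 and 4, while control replicate 2 lies within the knockout range. Ren1 is low in knockout replicates 2, 3 and 4 but at 115 CPM in knockout replicate 1.

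Ren1 (ENSMUSG00000070645, chromosome 1, 133350510 to 133360325, plus strand, GRCm38) is the gene of the enzyme that starts the cascade. It stood at 94.8, 53.4, 159 and 369 CPM in control replicates 1 to 4 and at 115, 4.07, 29.2 and 15.4 CPM in knockout replicates 1 to 4. Knockout replicates 2, 3 and 4 thus lay below every control, and knockout replicate 1 lay above control replicates 1 and 2. The means were 169 ± 140 CPM in controls and 41.0 ± 50.6 CPM in knockouts (mean ± SD, n = 4 each), a log2 fold change of −2.04 (SE 0.92, edgeR adjusted p 0.148). Knockout replicate 1 is the library with 2825 CPM of adrenal markers, led by Cyp21a1 (694 CPM), a steroid hydroxylase, and Star (613 CPM), which carries cholesterol into mitochondria. The mouse adrenal gland is known to express renin. Without knockout replicate 1 the log2 fold change was −3.37 (adjusted p 0.0620), and without control replicate 4 it was −1.33 (adjusted p 0.368). With the adrenal markers as a covariate it was −3.17 (SE 0.75, adjusted p 0.0488). Without the 3 libraries with adrenal transcripts Ren1 was not called (edgeR adjusted p 0.347), though its log2 fold change was −2.03 or lower. In that fit 3 controls face 2 knockouts, and 1 of 19154 genes tested was called. Knockout replicate 4, with adrenal markers at 432 CPM, had 15.4 CPM of Ren1. Knockout replicate 3, with adrenal markers at 24.2 CPM, had 29.2 CPM of Ren1. Control replicate 4, the library with the most Ren1, had adrenal markers at 162 CPM. The part of adrenal RNA in the Ren1 counts was not tested beyond these values. Some mouse strains carry a near-identical second renin gene, Ren2, and as the strain is not given, reads of such a copy cannot be told apart from those of Ren1.

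Agt (ENSMUSG00000031980, chromosome 8, 124556534 to 124569706, minus strand) encodes angiotensinogen, made mainly by liver and within the kidney by the proximal tubule. Its level was low, 7.29, 2.5, 11.3 and 16.4 CPM in control replicates 1 to 4, from 54 to 361 counts. In the knockouts it was 3.08, 2.31, 2.53 and 1.40 CPM, from 39 to 73 counts. The knockouts were alike, and 3 of the 4 controls were at least 7.29 CPM, while control replicate 2 stood within the knockout range. The means were 9.37 ± 5.90 and 2.33 ± 0.699 CPM, so Agt fell by 2.01 on the log2 scale (SE 0.50, edgeR adjusted p 0.0332). Liver markers summed to 234 and 190 CPM in knockout replicates 1 and 4, and to between 16.2 and 110 CPM elsewhere. Albumin (Alb) was at 89.3 and 82.4 CPM in these 2 knockouts and at 1.71 to 7.09 CPM elsewhere. The control sums of 77.6, 29.0, 62.3 and 110 CPM included Ttr at 59.5, 10.2, 36.4 and 81.4 CPM. Unlike Alb, Ttr was called lower in the knockouts (log2 fold change −3.76, edgeR adjusted p 0.0168). Of the knockouts, replicate 1 had the highest Agt and replicate 4 the lowest, and the part of liver RNA in these counts was not tested. The call was lost when control replicates 1, 3 or 4 were left out (adjusted p 0.0722, 0.0917 and 0.0866) or knockout replicates 1, 2 or 4 (0.0725, 0.0835 and 0.10). With any 1 of the 8 libraries left out, the log2 fold change lay between −2.32 and −1.60.

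Ace (ENSMUSG00000020681, chromosome 11, 105967945 to 105989964, plus strand) had the largest change of the 7. It was at 59.4, 20.3, 52.4 and 106 CPM in control replicates 1 to 4 and at 7.52, 4.67, 21.3 and 10.1 CPM in the knockouts. Again 3 controls stood clear of every knockout, and control replicate 2 lay just under knockout replicate 3. The means were 59.6 ± 35.5 and 10.9 ± 7.27 CPM, so Ace fell by 2.44 on the log2 scale (SE 0.56, edgeR adjusted p 0.0264), the lowest 1.13% of log2 fold changes among all genes tested. The call was lost without control replicates 1, 3 or 4 (adjusted p 0.0669, 0.0687 and 0.0680) or knockout replicates 1, 2 or 4 (0.0750, 0.0668 and 0.0850), with log2 fold changes of −2.97 to −2.01 over the 8 choices of library. The predicted antisense gene Gm11651, which overlaps Ace, had 3 counts over all 8 libraries.

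Proximal tubule markers, too, were lower in the knockouts. All 12 of these markers were called lower, with a median log2 fold change of −2.92, and none was at 0. Over all genes tested 14.9% were called. The order of the libraries by Ace was that by the summed markers, from knockout replicate 2 as the lowest to control replicate 4 as the highest, except that control replicate 2 and knockout replicate 3 changed places. Agt did not follow this order: among the knockouts it was highest in replicate 1 and lowest in replicate 4, and control replicate 2 held less of it than knockout replicates 1 and 3. Markers of endothelium, the other site of Ace, summed to 591 to 933 CPM in controls and 412 to 697 CPM in knockouts, with 1 of 10 called (lower) and a median of −0.48. In whole-kidney RNA, fewer cells of a type and less RNA per cell cannot be told apart, and the part of tubule content in the falls of Agt and Ace was not tested.

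**Figure D2:**
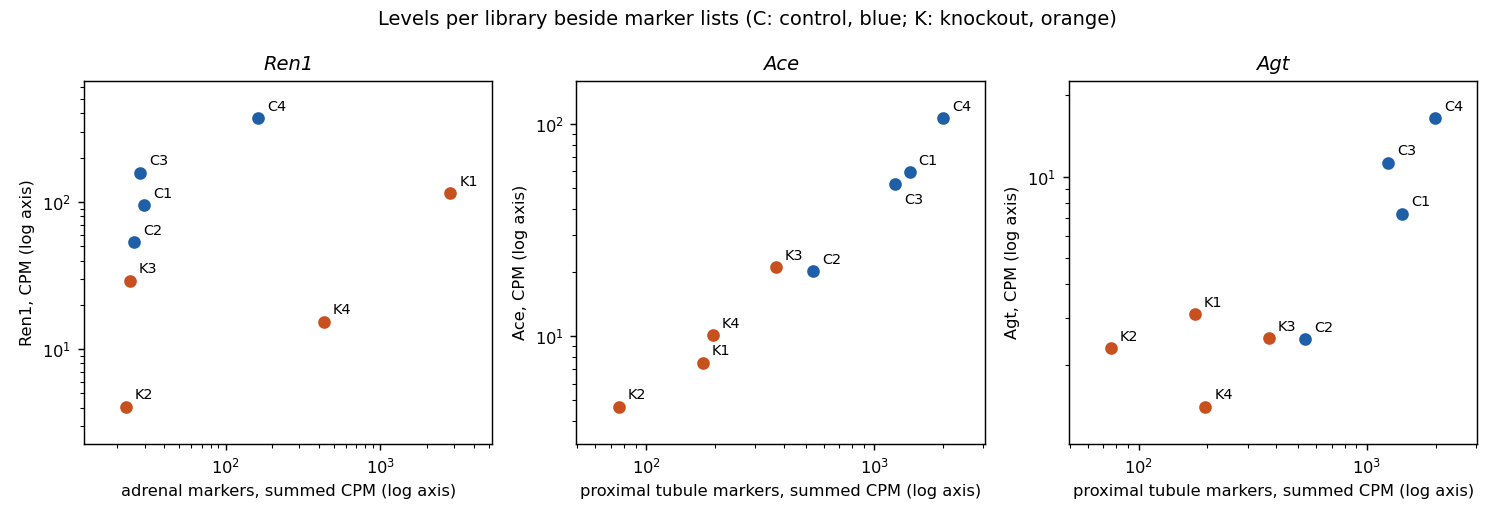
Level of Ren1 against the summed adrenal markers, and of Ace and Agt against the summed proximal tubule markers, in CPM on log axes, with 1 point per library (C1 to C4 controls, K1 to K4 knockouts). K1 holds the most adrenal transcripts (2825 CPM) and the most Ren1 among the knockouts, and C2 stands near the knockouts in the proximal tubule panels.

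Libraries with and without Y-linked transcripts were also set side by side, since the split crosses the genotypes. The X-linked Xist was at 965, 1086 and 1047 CPM in the libraries without them and at 2.25 to 6.14 CPM elsewhere. The 2 knockouts without Y-linked transcripts, replicates 1 and 4, are those with adrenal transcripts. The 1 such control, replicate 2, is that with oocyte transcripts. Among the knockouts this split thus cannot be told apart from that by adrenal transcripts. Among the 5 libraries with Y-linked transcripts, Ren1 ran from 94.8 to 369 CPM in 3 controls and was 4.07 and 29.2 CPM in 2 knockouts. In the same libraries Agt ran from 7.29 to 16.4 CPM against 2.31 and 2.53, and Ace from 52.4 to 106 CPM against 4.67 and 21.3. Among the 3 libraries without Y-linked transcripts, the 1 control had 53.4 CPM of Ren1, 2.5 of Agt and 20.3 of Ace, and the 2 knockouts had 15.4 and 115, 1.40 and 3.08, and 7.52 and 10.1 CPM. Ace was lower in both knockouts on this side as well, while Agt and Ren1 were lower in only 1 of the 2. In a fit of the 5 libraries with Y-linked transcripts alone, chosen after the data were seen, 4 of the 7 genes were called, all lower: Ren1 (−3.60, adjusted p 0.0476), Agt (−2.26, 0.0198), Ace (−2.45, 0.0461) and Agtr1a (−1.18, 0.0369). In that fit 16.7% of 18944 genes tested were called. Over all 8 libraries, in a fit that carried the Y-linked level, Ace was called (−2.06, adjusted p 0.0417), Agt was not (−1.66, 0.0779) and Ren1 was not (−2.70, 0.175).

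Agtr1a (ENSMUSG00000049115, chromosome 13, 30336441 to 30382867, plus strand) encodes the main type 1 receptor of the mouse. It was at 18.8, 14.7, 31.8 and 24.8 CPM in control replicates 1 to 4 and at 29.4, 8.89, 13.1 and 17.6 CPM in the knockouts, and the groups overlapped widely. The means were 22.5 ± 7.47 and 17.3 ± 8.82 CPM, a log2 fold change of −0.38 (SE 0.36, edgeR adjusted p 0.467). As with Ren1, the highest knockout was replicate 1, the library with the most adrenal transcripts. The log2 fold change was −0.77 without that library (adjusted p 0.156) and −0.91 with the adrenal covariate (adjusted p 0.0810). It shrank to −0.17 without control replicate 3 or without knockout replicate 2.

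Agtr1b (log2 fold change 1.22, SE 0.27, edgeR adjusted p 0.0239), the second type 1 receptor gene and not one of the 7, rose. Its levels were 1.6, 1.95, 1.41 and 1.05 CPM in control replicates 1 to 4, from 23 to 42 counts, and 4.31, 3.66, 2.25 and 3.78 CPM in the knockouts, from 65 to 105 counts. Every knockout lay above every control. The 2 knockouts without adrenal transcripts, replicates 2 and 3, held 3.66 and 2.25 CPM. With 1 library left out the call was kept in 2 of 8 cases, without control replicate 2 or knockout replicate 3, and the highest adjusted p was 0.0764, without knockout replicate 4. The log2 fold change was 1.10 with the adrenal covariate (adjusted p 0.0676) and 0.83 without the 3 libraries with adrenal transcripts (adjusted p 0.395). Per kilobase of exon, Agtr1b made up 8.91%, 13.2%, 4.86% and 4.62% of the transcripts of both type 1 receptor genes in the controls and 14.4%, 32.2%, 16.4% and 19.8% in the knockouts. This share is independent of library scaling and did not overlap between the groups; it was chosen after the values were seen. The paralogs shared 33 of the 2922 stretches of 50 bases in Agtr1a transcripts (1.1%), so few reads could match both.

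Agtr2 (ENSMUSG00000068122, X chromosome, 21484544 to 21489164, plus strand) encodes the type 2 receptor. It was abundant in all 8 libraries, at 80.9, 137, 88.9 and 54.3 CPM in control replicates 1 to 4 and 102, 122, 88.1 and 131 CPM in the knockouts. The highest library was a control, replicate 2, and the lowest was also a control, replicate 4. The means were 90.2 ± 34.4 and 111 ± 19.5 CPM, a log2 fold change of 0.30 (SE 0.25, edgeR adjusted p 0.413). Without control replicate 2, the one with oocyte transcripts, the log2 fold change was 0.57 and called (adjusted p 0.0435). With all libraries it was also called by limma-voom with sample weights (0.51, adjusted p 0.0396). These 2 fits called 37.4% and 44.9% of all genes tested, against 14.9% by edgeR with all libraries. Without control replicate 4 the log2 fold change was 0.11 (edgeR adjusted p 0.745). Agtr2 exceeded Agtr1a per kilobase of exon in every library, by 1.62 to 6.93 times in the controls and 2.58 to 10.2 times in the knockouts.

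Mas1 (ENSMUSG00000068037, chromosome 17, 12841079 to 12868143, minus strand) was near the limit of counting, with 23, 40, 21 and 5 counts in control replicates 1 to 4 and 50, 35, 48 and 42 in the knockouts. These correspond to 0.942, 1.85, 0.848 and 0.227 CPM and to 2.11, 1.76, 1.66 and 1.51 CPM. All knockouts lay above 3 of the controls, and control replicate 2 was within their range. The log2 fold change was 0.86 (SE 0.47, edgeR adjusted p 0.215), and 1.36 without control replicate 2 (adjusted p 0.0286). It was 0.53 without control replicate 4 (adjusted p 0.323). The fit without control replicate 2 called 37.4% of all genes tested, against 14.9% with all libraries. The long non-coding RNA Airn overlaps Mas1 on the opposite strand. It stood at 11.8, 19.4, 9.48 and 8.04 CPM in the controls and 15.1, 15.8, 16.0 and 16.8 CPM in the knockouts, the same rank of control replicates 2 and 4 as highest and lowest. As the strand setting of the counting is not given in the sources used here, reads of Airn and Mas1 cannot be told apart.

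Atp6ap2 (ENSMUSG00000031007, X chromosome, 12587801 to 12617049, plus strand) varied least. It was at 82.8, 86.6, 100 and 105 CPM in control replicates 1 to 4 and 83.5, 74.2, 89.7 and 92.2 CPM in the knockouts. The groups overlapped, and the highest library exceeded the lowest by 1.27 times in controls and 1.24 times in knockouts, against 6.91 and 28.3 times for Ren1. The log2 fold change was −0.14 (SE 0.10, edgeR adjusted p 0.328), and it lay between −0.22 and −0.08 in all alternative fits.

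Per kilobase of exon, which allows genes to be compared, the order of control levels was Ren1 (102 ± 84.6 CPM per kilobase), Atp6ap2 (35.8 ± 4.09), Agtr2 (27.1 ± 10.3), Ace (11.3 ± 6.71), Agtr1a (9.12 ± 3.03), Agt (4.95 ± 3.12) and Mas1 (0.369 ± 0.256). In the knockouts the order of levels was Agtr2 (33.4 ± 5.86 CPM per kilobase), Atp6ap2 (32.4 ± 3.06), Ren1 (24.7 ± 30.5), Agtr1a (6.99 ± 3.58), Ace (2.06 ± 1.38), Agt (1.23 ± 0.370) and Mas1 (0.672 ± 0.0975). Neighbours in either order overlapped in their libraries, with the exception of Agt and Mas1 in the controls. Ren1 was the highest of the 7 in control replicates 1, 3 and 4, at 57.2, 95.7 and 223 CPM per kilobase, and in control replicate 2 its 32.2 stood below the 41.1 of Agtr2.

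The genes most like each member over the 8 libraries were sought among 14202 tested genes, those that averaged 1 CPM or more less predicted genes known by a number, pseudogenes by name, Xist and Y-linked genes, by Pearson's r of log2 CPM. These are descriptions, since all points share the same 8 libraries and their depth. Ren1 was closest to Casz1 (r = 0.988), Fzd5 (0.987) and Dot1l (0.986), and Agt to Rnf149 (0.992), Arhgef18 (0.987) and Cuta (0.987). Ace was closest to Acsm5, Blvra and Acaa1b (r = 0.997 each), of which Acsm5 and Acaa1b belong to fatty acid metabolism. Acsm5 was at 6.16 CPM in controls and 0.549 CPM in knockouts, and Acaa1b at 25.3 and 4.67 CPM. The closest to Agtr1a were Etfrf1 (r = 0.991), Mettl4 (0.966) and Mark3 (0.960), and to Agtr2 Lsm5 (0.987), Ubxn4 (0.981) and Socs2 (0.975). Atp6ap2 was closest to Xbp1 (0.977), Il15 (0.966) and Ampd3 (0.964), and Mas1 to Ckm (0.987), Tomm34 (0.986) and Trib1 (0.975).

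The rest of the pathway was followed in 83 further genes in 7 lists, written with earlier results of these data known. Of the 83 genes 81 were tested. Of the 81 tested 19 were called, 16 lower and 3 higher in the knockout, 23.5% against 14.9% over all genes tested. The median log2 fold change was −0.37 against 0.0044. The count rested on single libraries: it was 4, 46, 2 and 4 without control replicates 1 to 4 and 3, 3, 31 and 1 without knockout replicates 1 to 4. As shares these were 4.94%, 56.8%, 2.47% and 4.94%, and 3.70%, 3.70%, 38.3% and 1.23%. The shares over all genes in the same fits were 2.86%, 37.4%, 2.0% and 3.65%, and 3.0%, 3.15%, 17.0% and 0.819%, so the list's count moved with that of all genes. Each of the 19 kept its direction in all 8 cases, and 1, Sucnr1, kept its call in all 8.

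Among 14 enzymes that make or break angiotensins and related peptides, 13 were tested and 3 were called, all lower. This was 23.1%, against 14.9% over all genes tested. The median log2 fold change of the list was −0.24. Anpep, the brush border aminopeptidase N, fell by 2.37 on the log2 scale (SE 0.39, edgeR adjusted p 0.0132), from 271 ± 162 to 52.5 ± 13.0 CPM, with every knockout below every control. Klk1, tissue kallikrein, which releases kinins, fell by 3.14 (SE 0.71, adjusted p 0.0259), and Thop1, a cytosolic oligopeptidase, fell by 0.32 (SE 0.07, adjusted p 0.0220). Enpep, the aminopeptidase that acts on angiotensin II, had −1.19 (adjusted p 0.0528) and Mme, neprilysin, −0.50 (adjusted p 0.0546). Ctsg was filtered out as too low. In the list of 10 other receptors and their partners, Agtr1b was the 1 call among 9 tested genes (11.1%). Mrgprd had no count in any library, and Agtrap, a protein that binds the type 1 receptor, was at 0.02 (SE 0.07, adjusted p 0.889).

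The list of 17 renin cell and smooth muscle genes had 1 call in each direction (11.8%, against 14.9% over all genes tested). Its median log2 fold change was −0.02. Gja5, the connexin that couples renin cells, fell by 1.09 (SE 0.27, edgeR adjusted p 0.0312), from 6.31 ± 2.28 to 2.95 ± 0.594 CPM, and all knockouts lay below all controls. Foxd1, a transcription factor of the stromal progenitors from which renin cells arise, rose by 0.64 (SE 0.18, adjusted p 0.0477), with control replicate 2 (39.6 CPM) above knockout replicate 3 (35.9 CPM). Akr1b7, an aldose reductase-like enzyme known from both renin cells and adrenal cortex, was at 9.18, 10.02, 12.1 and 32.0 CPM in control replicates 1 to 4 and 599, 1.56, 16.3 and 59.7 CPM in the knockouts. Its highest libraries were the 3 with adrenal transcripts, in the order of their adrenal sums, and its log2 fold change of 3.42 (adjusted p 0.117) was −0.17 with the adrenal covariate. It was −0.21 without those 3 libraries. The other smooth muscle genes of the list, among them Acta2 and Myh11, were not called.

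Genes of the macula densa, the tubule plaque that sets renin release, had 1 call among 8 and a median log2 fold change of −1.07. This share of calls was below the 14.9% over all genes tested. Sucnr1, the succinate receptor, fell by 5.07 (SE 0.54, edgeR adjusted p 0.00496), from 215, 59, 108 and 249 counts in the controls to 3, 3, 8 and 6 in the knockouts. Slc12a1, the sodium, potassium and chloride cotransporter that senses salt there and also marks the thick ascending limb, was at 318, 149, 542 and 582 CPM in controls and 23.8, 2.81, 233 and 37.5 CPM in knockouts (log2 fold change −2.42, adjusted p 0.131). Knockout replicate 3 alone kept it high among the knockouts, and without that library the log2 fold change was −4.18 and called (adjusted p 0.0204). Pappa2 had −0.71 (adjusted p 0.0651), Ptgs2, the inducible prostaglandin synthase, −1.02 (adjusted p 0.125) and Nos1, the neuronal nitric oxide synthase, 0.28 (adjusted p 0.541).

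Of 14 genes of the aldosterone response, the downstream arm of the system, 5 were called lower and 1 higher. This was 42.9%, against 14.9% over all genes tested. By value 12 of the 14 were lower, and the median log2 fold change was −0.62. Of the 5, 4 were Slc12a3 (−2.80, edgeR adjusted p 0.0190), Kcnj1 (−2.82, 0.0465), Scnn1a (−2.21, 0.0382) and Klhl3 (−0.99, 0.0371). They encode the thiazide-sensitive sodium chloride transporter, a potassium channel, the alpha subunit of the epithelial sodium channel and a ubiquitin ligase adaptor. Hsd11b2, which protects the mineralocorticoid receptor from corticosterone, rose by 0.59 (SE 0.17, adjusted p 0.0459), from 23.9, 31.3, 26.0 and 42.4 CPM to 41.6, 48.3, 49.996 and 45.6 CPM, and control replicate 4 overlapped the knockouts. With 1 library left out, Slc12a3 kept its call in 5 of 8 fits and Klhl3 in 1. Kcnj1, Scnn1a and Hsd11b2 kept theirs in 2.

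The widely expressed subunits of the proton pump that Atp6ap2 serves were lower in the knockout by value in 15 of 15. Of the 15, 5 were called (33.3%, against 14.9% over all genes tested). The median log2 fold change of the 15 was −0.37. The 5 were Atp6v1a (−0.92, edgeR adjusted p 0.0399), Atp6v1d (−0.52, 0.0320), Atp6v1b2 (−0.50, 0.0289), Atp6v1c1 (−0.37, 0.0352) and Atp6v1g1 (−0.25, 0.0461), all of the cytosolic sector. Atp6ap1, the other accessory subunit, had −0.35 (adjusted p 0.0950). Among 5 subunits typical of intercalated cells, which acidify the urine, Atp6v0a4 was the 1 call (20%). It fell by 2.33 (SE 0.56, adjusted p 0.0298), and the median of the list was −1.73. Atp6v1b1 (−1.73, adjusted p 0.110) and Atp6v0d2 (−1.01, adjusted p 0.115) were not called.

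**Figure D3:**
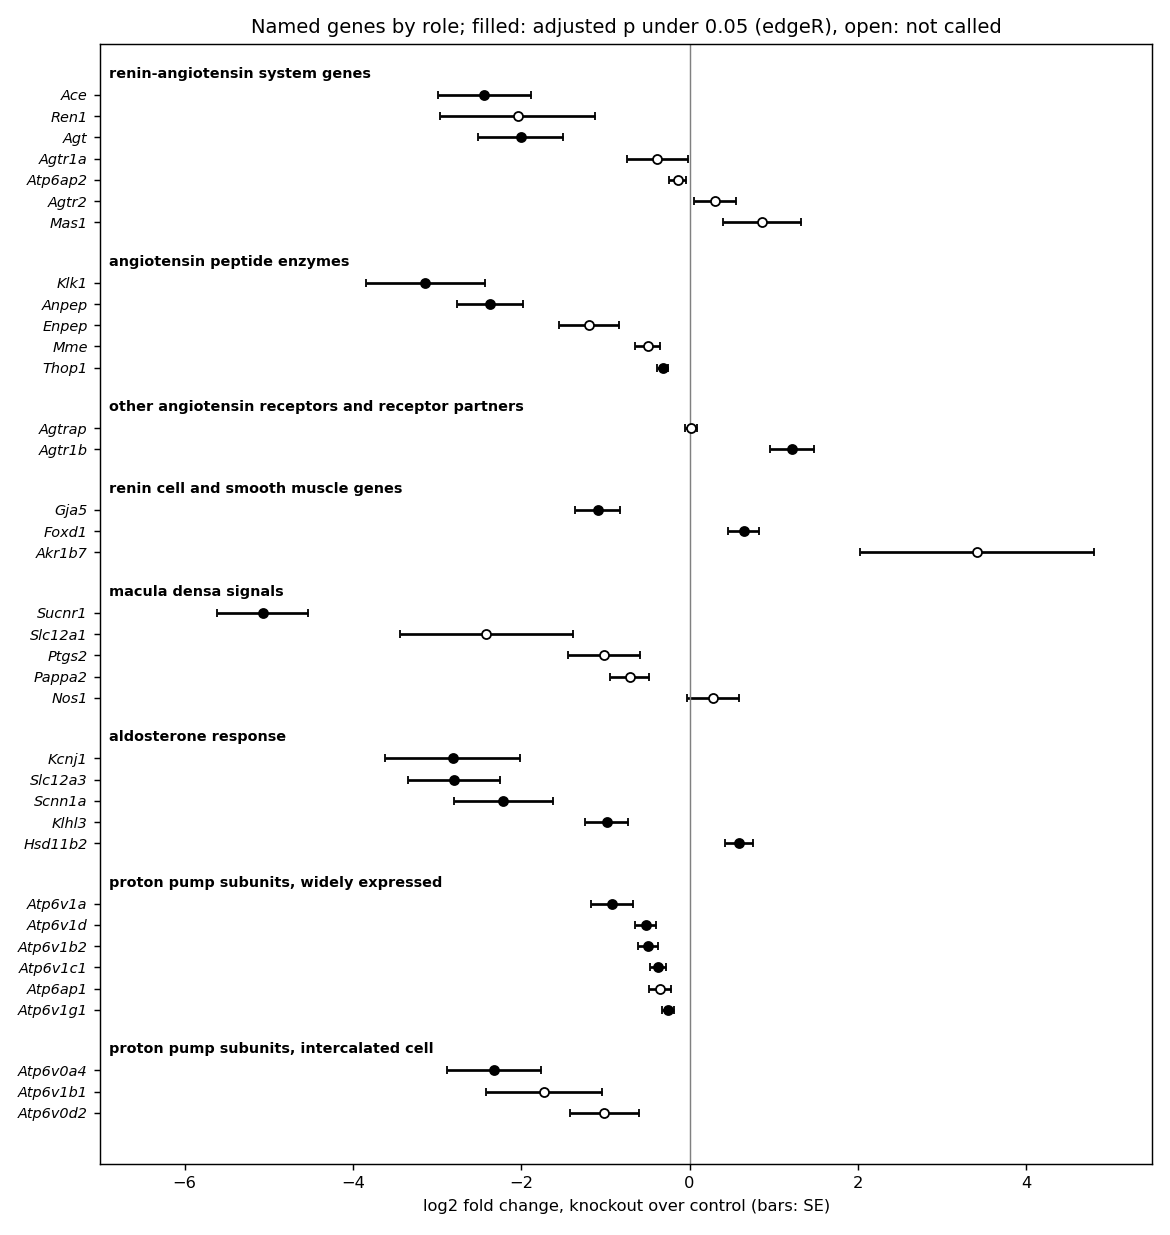
Log2 fold change (knockout over control, with SE) of the 7 genes and of the genes named from the 7 other lists, grouped by role, filled where called and open where not. Ace (−2.44) and Agt (−2.01) are filled and Ren1 (−2.04) is open with the widest bar of the 7.

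The settings of the analysis were also compared for 5 of the genes. Ren1, Agt and Ace stayed below 0 and Agtr2 and Mas1 above 0 in each of the 21 alternatives run, whereas the call changed with the libraries included. Without control replicate 2, 4 of the 7 genes were called (Agt and Ace lower, Agtr2 and Mas1 higher), beside 37.4% of all genes tested (14.9% with all libraries), and without any other single library it was 0 or, without knockout replicate 3, 2.

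**Figure D4:**
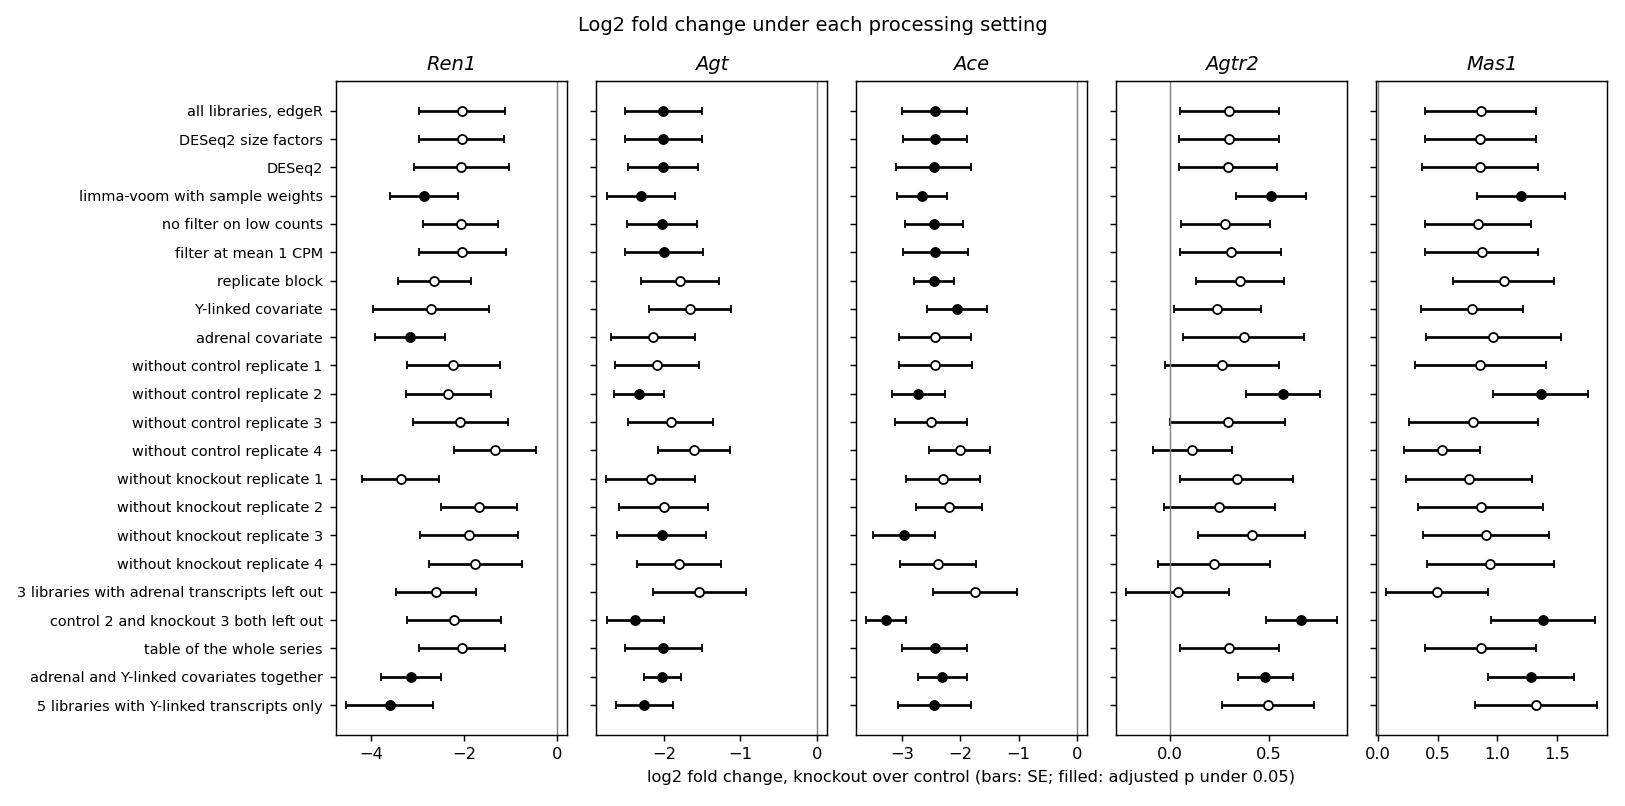
Log2 fold change (knockout over control, with SE) of Ren1, Agt, Ace, Agtr2 and Mas1 under each setting, 1 row per setting, filled where the adjusted p is under 0.05. Ren1 runs from −3.60 to −1.33 and is filled under 4 settings, and Agtr2 and Mas1 are filled without control replicate 2.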

How the data were processed

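Per the submitters' processing notes, reads were trimmed with Trimmomatic 0.36, aligned with STAR 2.5.2b to GRCm38 and counted with featureCounts of Subread 1.5.2, and DESeq2 is named too. Gene by library, the authors deposited raw counts in whole numbers, and the tables per library give exon coordinates and gene length per the file headers. Strand setting and treatment of reads matching several genes are not given in the sources used here. The table of the whole series held identical counts (0 cells differed). Coordinates of the 7 genes matched GENCODE M21, and symbols were found for 48970 of 49315 IDs.

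In R 4.3.3, edgeR 4.0.16 supplied the filter (filterByExpr), the scaling (TMM) and the quasi-likelihood test, without covariate. Standard errors come from the fold change and its F statistic. The fit was also run on simulated counts. These were drawn gene by gene without the Y-linked, adrenal or tubule differences between libraries, so that run cannot vouch for calls in these libraries. No pair of libraries agreed within sampling noise (lowest chi-square per degree of freedom 11 over 28 pairs). CPM uses the scaled library sizes, and log2 CPM a prior count of 2. Counting limits precision for Mas1, Agtr1b and Sucnr1. Same-numbered libraries deviated with correlations of −0.11, 0.33, 0.23 and −0.06, so numbers were not treated as pairs.

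Alternatives were DESeq2 1.42.0 and its size factors, limma-voom (3.58.1) with sample weights, other filters, a replicate block, covariates for Y-linked and adrenal transcripts, and libraries left out. Members and lists were chosen with earlier results of these data known. The text names the 7 genes, up to 6 called genes of each pathway list, 12 pathway genes fixed whatever their value, and the 3 genes most like each member; other genes and the ratios were chosen after their values were seen. Some genes that this rule would name are not reported here. Marker lists cover proximal tubule, podocyte, endothelium, fibroblast, leukocyte, liver, adrenal, oocyte and gonad.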

Additional observations from a re-analysis of the deposited data

Results flagged for a closer look

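In 9 groups of 4 libraries, of 76 examined for the genes named above, 1 library stood apart from the other 3 by more than 0.829 of the group's range. Chance flags about 1 in 20 groups. None of the 7 renin-angiotensin genes was among them. Akr1b7 was high in knockout replicate 1 (599 CPM, the others 1.56 to 59.7) and in control replicate 4 (32.0 CPM, the others 9.18 to 12.1), both libraries with adrenal transcripts. Knockout replicate 3 was high among the knockouts in Slc12a1 (233 CPM, the others 2.81 to 37.5), Kcnj1 (22.5 CPM, the others 1.86 to 4.39) and Klk1 (6.33 CPM, the others 0.853 to 1.12), and low in Foxd1 (35.9 CPM, the others 50.3 to 51.7). Ptgs2 was high in control replicate 3 (4.60 CPM, the others 1.47 to 1.95). Thop1 was low in knockout replicate 1 (36.2 CPM, the others 38.1 to 38.4) and Atp6v1b2 in knockout replicate 2 (89.0 CPM, the others 102 to 104).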

How the results depend on the processing

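All 7 genes kept their direction in every alternative run, while calls depended on the libraries and the tool. The fits with both covariates and with 5 libraries were chosen after the data were seen. Out of all genes tested, 4441 were called with DESeq2, 8302 with limma-voom, 1150 with the adrenal covariate, 5600 with both covariates, 7903 without control replicate 2 and knockout replicate 3, and 1 without the 3 libraries with adrenal transcripts, where 3 controls face 2 knockouts. Leaving out 1 library gave 153 to 7084. The Y-linked covariate gave 2068 and the 5 libraries 3163. As shares of the genes tested these were 21.7% with DESeq2, 44.9% with limma-voom, 11.2% with the Y-linked covariate, 6.22% with the adrenal covariate, 30.3% with both, 16.7% with the 5 libraries, 42.7% without control 2 and knockout 3, 0.00522% without the 3 libraries and 0.819% to 37.4% with 1 library left out, against 14.9%. Of the 7 genes, 5 were called with limma-voom, 1 with the Y-linked covariate, 1 with the adrenal covariate, 6 with both covariates, 4 with the 5 libraries, 4 without control 2 and knockout 3, and 0 without the 3 libraries. Leaving out 1 library gave 0 to 4. Of the 81 pathway genes, 35 were called with DESeq2, 55 with limma-voom, 10 with the Y-linked covariate, 6 with the adrenal covariate, 41 with both, 54 without control 2 and knockout 3 and 0 without the 3 libraries. Leaving out 1 library gave 1 to 46. Where 0 of the 7 were called without the 3 libraries, edgeR gave Agt an unadjusted p of 0.0445 and Ace 0.0502.

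Ren1 was called with limma-voom (−2.86), the adrenal covariate (−3.17), both covariates (−3.14) and the 5 libraries (−3.60). Its range over single libraries left out was −3.37 to −1.33. Agt was no longer called with the Y-linked covariate (−1.66), the adrenal covariate (−2.15) and without the 3 libraries (−1.54), and ranged from −2.32 to −1.60 with 1 library left out. Ace lost it with the adrenal covariate (−2.44) and without the 3 libraries (−1.75), and ranged from −2.97 to −2.01. Agtr1a was called with both covariates (−0.92) and the 5 libraries (−1.18). Agtr2 was called with limma-voom (0.51), both covariates (0.48) and without control 2 and knockout 3 (0.66), and ranged from 0.11 to 0.57. Mas1 was called with limma-voom (1.20), both covariates (1.28) and without control 2 and knockout 3 (1.39), and ranged from 0.53 to 1.36. The cause of these changes was not tested.

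With the replicate number as a block, 3229 of all genes (17.5%), 1 of the 7 (Ace) and 39 pathway genes were called, and Agt was −1.79 (adjusted p 0.0529). The labels do not say that the numbers pair the libraries. Control replicates 1 and 4 and knockout replicates 1, 3 and 4 correlated best with another number. Some libraries of the same number differ in Y-linked and adrenal transcripts, so these correlations cannot settle whether the numbers mark pairs.

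Agtrap changed sign with limma-voom (−0.0149), no filter (−0.0030), without control replicate 2 or 3 or knockout replicate 2 (−0.0208, −0.0059 and −0.0081; range over single libraries −0.0208 to 0.0680) and without control 2 and knockout 3 (−0.0374). Akr1b7 did with the adrenal covariate (−0.17), both covariates (−0.14), the 5 libraries (−0.96) and without the 3 libraries (−0.21). Other alternatives of the named pathway genes kept the side of the threshold in 436 cases, lost a call in 154 and gained one in 51.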

Other observations

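The genes named here were chosen after their values were seen. Other cell types of the kidney moved unevenly beside the renin-angiotensin genes. The share called over all genes tested was 14.9%. Of 8 podocyte markers 2 were called, both lower, Nphs1 and Podxl, with a median log2 fold change of −0.98. By value 6 were lower. The 2 higher were Magi2 (0.10, edgeR adjusted p 0.695) and Wt1 (0.04, edgeR adjusted p 0.826), which is also a gene of nephron progenitors. Of 8 fibroblast markers 2 were called, both higher, Pdgfra (0.90, adjusted p 0.00575) and the imprinted RNA Meg3 (1.66, adjusted p 0.0277), and all 8 were higher by value. Of 6 leukocyte markers tested 2 were called, both higher, Ptprc (0.93, adjusted p 0.0146) and the complement gene C1qa (0.55, adjusted p 0.0261). The 4 not called were Itgam (0.89, edgeR adjusted p 0.0723), Cd68 (0.30, 0.268), Adgre1 (0.03, 0.926) and Csf1r, lower by value (−0.40, 0.270). Cma1 and Cpa3, mast cell proteases of the peptide enzyme list, were highest in control replicate 2, at 10.9 and 10.4 CPM. They were at 0.227 to 5.57 CPM in every other library. Liver markers were called higher in 2 cases and lower in 1 of 9 tested, and the 1 lower, Ttr (−3.76, adjusted p 0.0168), had 59.5, 10.2, 36.4 and 81.4 CPM in controls and 0.602 to 4.84 CPM in knockouts. Adrenal markers had 0 calls among 11 tested by edgeR at a median of 3.68, with 7 at an unadjusted p under 0.05. Oocyte markers had 0 calls among 2 tested, with 0 at an unadjusted p under 0.05, and gonad markers 0 among 3, with 1.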
